A study of Mus musculus with 2 samples.

Results

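Granzymes are serine proteases that killer lymphocytes store in granules, and perforin is the protein that lets them into a target cell. Of the 32285 gene rows of each library, the 9 that carry the symbols Gzma, Gzmb, Gzmc, Gzmd, Gzme, Gzmf, Gzmg, Gzmk and Prf1 are described here. They were taken by symbol as a gene family, with earlier results of these data known. Single-cell transcriptomes were recorded, by 10x 3′ v2 chemistry, from regulatory T cells (Tregs), suppressive lymphocytes that require Foxp3, sorted out of tumours. All mice were C57BL/6 and 8 to 12 weeks old. There was 1 library of wild-type mice (genotype JMJD1CWT, here WT) and 1 of mice with a Treg-specific Jmjd1c knockout (JMJD1CTregcKO, here cKO). Jmjd1c encodes a JmjC-domain protein of the histone demethylase family. After enzyme digestion and a Percoll step, Tregs were picked with magnetic beads and then sorted by flow cytometry on a fluorescent signal. The labels name neither the tumour nor the Cre line nor the deleted exons, and they do not say how many animals of which sex were used.

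In a killer cell, granzymes and perforin are packed with the proteoglycan serglycin into granules that fuse with the membrane at the contact with a target. Perforin then opens pores, and granzyme B, which cuts after aspartate, starts apoptosis by cleaving caspases and their substrates. Tregs in tumours are known to use granzyme B and perforin against effector T cells and natural killer (NK) cells.

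Gzmb (ENSMUSG00000015437) is at chr14:56258838-56262260 on the minus strand of mouse build GRCm38. Downstream of it on the same strand are Gzmc (chr14:56231441-56234656), Gzmf (chr14:56205263-56211417), Gzmg (chr14:56156582-56159579), Gzmd (chr14:56129556-56132608) and Gzme (chr14:56117626-56120625), so that 6 members share 145 kb. Gzma (chr13:113093825-113100981) and Gzmk (chr13:113171608-113225908) are neighbours on chromosome 13, and Prf1 (ENSMUSG00000037202, chr10:61297833-61304680, plus strand) stands alone. All 9 are protein coding in the annotation.

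The bases before the RefSeq start of Gzmb, Gzma, Gzmc, Gzme and Prf1 are shown because these genes had unlike levels in Tregs and because the windows of Gzmc and Gzme are related to each other. Each is written 5′ to 3′ on the gene's own strand of GRCm38.p6 (RefSeq) and ends at the RefSeq start, except for Prf1. The Prf1 stretch stops just before the gene as annotated, while its searched window ran to chr10:61297835. Capitals mark TGTGGT or its reverse complement ACCACA, the core that RUNX factors bind, and TGANTCA, the motif of AP-1 factors. The windows are chr14:56262335-56262584 for Gzmb, chr13:113100982-113101231 for Gzma, chr14:56234658-56234907 for Gzmc, chr14:56120626-56120875 for Gzme and chr10:61297586-61297832 for Prf1.
Gzmb: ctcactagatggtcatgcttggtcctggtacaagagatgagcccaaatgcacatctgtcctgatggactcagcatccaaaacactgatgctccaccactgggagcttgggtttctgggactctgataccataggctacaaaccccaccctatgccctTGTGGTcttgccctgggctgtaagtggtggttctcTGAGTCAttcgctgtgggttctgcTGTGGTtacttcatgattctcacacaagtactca
Gzma: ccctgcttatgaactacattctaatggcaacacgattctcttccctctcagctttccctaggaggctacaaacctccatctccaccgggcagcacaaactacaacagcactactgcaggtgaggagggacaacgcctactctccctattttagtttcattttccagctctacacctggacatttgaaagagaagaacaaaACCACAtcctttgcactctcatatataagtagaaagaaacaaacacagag
Gzmc: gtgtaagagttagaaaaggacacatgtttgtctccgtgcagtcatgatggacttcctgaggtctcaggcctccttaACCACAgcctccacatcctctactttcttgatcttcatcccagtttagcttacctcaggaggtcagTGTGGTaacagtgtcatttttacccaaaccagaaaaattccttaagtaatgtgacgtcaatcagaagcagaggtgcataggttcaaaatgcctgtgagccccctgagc
Gzme: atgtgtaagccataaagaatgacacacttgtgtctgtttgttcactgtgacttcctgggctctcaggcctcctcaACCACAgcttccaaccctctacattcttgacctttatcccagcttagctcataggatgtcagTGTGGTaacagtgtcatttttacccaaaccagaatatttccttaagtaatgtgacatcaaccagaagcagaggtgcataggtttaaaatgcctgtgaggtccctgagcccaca
Prf1: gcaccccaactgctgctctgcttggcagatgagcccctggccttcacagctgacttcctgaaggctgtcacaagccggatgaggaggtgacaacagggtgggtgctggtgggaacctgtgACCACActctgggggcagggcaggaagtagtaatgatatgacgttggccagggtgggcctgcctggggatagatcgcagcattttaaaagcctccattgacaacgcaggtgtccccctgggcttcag
Both strands of the 250 bases before each start were searched. The RUNX core was in 8 of the 9 windows, all but that of Gzmk, beside 14.05% of 32851 windows of this length in the whole RefSeq table. The Gzmk window, chr13:113180966-113181215, lies inside the gene as annotated (chr13:113171608-113225908). It is therefore not upstream of the start in that annotation, and the Gzmk results hold for the RefSeq start only. It occurred at least 2 times in all 6 members on chromosome 14, beside 1.27% of all windows. These 6 are not independent, since the windows of Gzmd and Gzme are 94.8% identical, that of Gzmc is 80.5% and 80.9% identical to them, and those of Gzmf and Gzmg are 82.2% identical to each other. The window of Gzmb was 45.5% to 49.3% identical to those of the other members. AP-1 matched in Gzmb alone of the members, beside 6.75% of all windows. GGTGTGA, a site of T-box factors, matched in Gzmk alone, beside 3.33%. TTCNNNGAA, the STAT motif, was in none of the 9 windows, beside 7.02%, and CANNTG, the E-box, was in 8 of 9, beside 66.2%. The 5 motifs are distinct from each other, and a match is a match of letters only.

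The WT library held 49063944 unique molecular identifiers (UMIs, 1 per captured transcript) in 3905 barcodes, and the cKO library 37666195 in 4105. With at least 500 genes and under 10% mitochondrial UMIs, 3842 and 4026 cells were kept, with medians of 9088 and 6953 UMIs. Levels are counts per 1000000 UMIs of a class (CPM). Jmjd1c was at 88.6 CPM in WT Tregs (85.6 to 91.6) and 74.1 in cKO Tregs (70.7 to 77.7). These are 3′ tags, so they do not test a deletion upstream. The X-linked transcript Xist was in 97.1% of WT and 0.273% of cKO cells, and transcripts of Y-linked genes were in 74.6% of cKO cells and in 0 of 3842 WT cells, which allows a share of up to 0.0781%. Sex and genotype therefore cannot be told apart. The libraries shared 2 barcodes. Each group is 1 library, so no difference between the groups was tested or has a replicate check. Each interval given after a value is a 95% interval for counting error, exact Poisson for levels, exact conditional binomial for ratios and Clopper-Pearson for shares. Where 0 cells were found, the upper share given is instead that of 3 cells. It is lower than the Clopper-Pearson limit, which is 3.55% for 0 of 102 cells.

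Cells were put into classes by their UMIs. A Treg had at least 1 UMI of Cd3e or Cd3g, at least 6 of Foxp3, Il2ra, Ikzf2 and Ctla4, at most 1 of Cd8a and Cd8b1 and at most 2 of Lyz2 and C1qa, and 3240 WT and 2832 cKO cells met this (84.3% and 70.3%). A CD8 T cell had at least 3 UMIs of Cd8a and Cd8b1 (213 and 403 cells). An NK cell had at least 2 of Ncr1 and Klrb1c and 0 of Cd3e (1 and 34 cells), and a myeloid cell at least 10 of Lyz2 and C1qa (103 and 317 cells). No class took 285 WT and 434 cKO cells, and 6 cKO barcodes that met more than 1 rule were left out of all classes. All 9 Treg markers were detected in the Treg class, at a sum of 8742 CPM in WT and 10893 in cKO. The CD8 T class was mixed: 138 of its 213 WT cells and 107 of its 403 cKO cells had a UMI of Cd4 or Foxp3. The Treg markers reached 5434 and 4784 CPM in it, a sum that includes Cd3e (577 and 814) and Cd3g (1281 and 1278), which are CD8 T markers too. Myeloid markers summed to 432 CPM in WT and 167 in cKO there. Most of this was Tyrobp (262 and 84.9 CPM) and Fcer1g (142 and 35.6), which are NK markers too. Lyz2 was at 3.74 and 17.6 CPM and C1qa at 1.76 in both. Dendritic cell markers summed to 627 and 324, and the part of all these in the CD8 T results was not tested. Shares of cells with a UMI were taken after every cell had been thinned to 4100 UMIs. Of the Tregs, 111 in WT and 366 in cKO were shallower and were left out. Values before thinning are given beside them.

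Granzyme B was far more abundant in cKO Tregs, and it was the only member whose level kept this difference under every gate tried. In WT it marked a minority of Tregs, and in cKO it was found in most of them. Perforin went the other way. Granzymes A and C were also higher in the cKO Treg class, where a few cells held most of their UMIs. Most of these cells had an NK marker UMI too. In CD8 T cells granzymes A, B and K were higher in cKO. Perforin was near the same level in the whole CD8 T class of both libraries, and lower in cKO in the CD8 T cells without Cd4 or Foxp3.

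**Figure D1:**
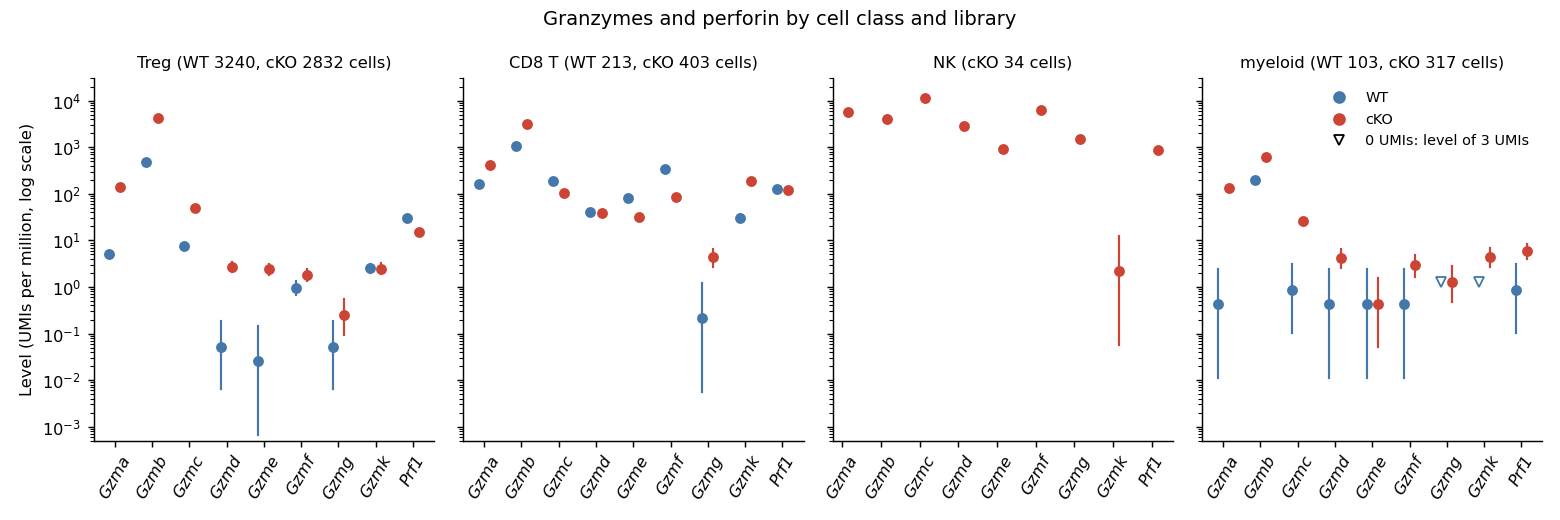
Level of each member (CPM, log scale) in 4 cell classes, WT in blue and cKO in red; vertical lines are 95% Poisson intervals, and open triangles mark the level of 3 UMIs where 0 were found. In Tregs Gzmb, Gzma and Gzmc are higher in cKO and Prf1 is lower, and the single WT NK cell is not drawn.

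In the Treg class 4 members had a mean of at least 5 CPM. On the scale of log2(CPM + 5), 3 of the 9 members were at least 2-fold higher in cKO (Gzma, Gzmb and Gzmc), beside 0.991% of the 8676 genes that passed the same minimum. No member was 2-fold lower, beside 1.21% of genes. In either direction the share of all genes was 2.2%. The median log2 difference over all genes tested was -0.02. Of the 4947 genes that averaged 20 CPM or more, with Xist, Y-linked, receptor segment, ribosomal and mitochondrial genes and unnamed gene models left out, Gzma ranked first by log2 difference, Gzmb second and Gzmc in place 4, and Prf1 was number 91 from the lowest. Gzmd, Gzme, Gzmf, Gzmg and Gzmk did not reach the 5 CPM minimum. Under the stricter Treg gate described below for Gzmb, Gzmb alone of the members was past 2-fold. Without cells that had an NK marker or Tyrobp UMI, Gzmb was past 2-fold higher, Prf1 was past 2-fold lower (-1.15), and Gzma (0.09) and Gzmc (0.81) were under it.

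Gzmb had 18446 UMIs in WT Tregs, a level of 484 CPM (477 to 491). It had 97155 UMIs in cKO Tregs, a level of 4139 CPM (4113 to 4165). The ratio was 8.55 (8.42 to 8.69), a log2 difference of 3.08. Tregs held 72.8% of all Gzmb UMIs of the WT library and 76.8% of those of the cKO library, so most Gzmb transcripts in both came from this class. Gzmb was detected in 32.5% of thinned WT Tregs (30.8 to 34.1) and 84.1% of cKO Tregs (82.6 to 85.5), and in 41.9% and 88.1% before thinning. Myeloid cells, which are not a known source of Gzmb at rest, had it in 21.6% and 36.7% of thinned cells, 38.8% and 50.2% before thinning. Their median depths were 20622 and 13633 UMIs, against 8546 and 6425 in Tregs. In CPM the myeloid level of Gzmb was 40.4% of the Treg level in WT and 15.0% in cKO. In the same comparison the Treg transcripts Il2ra (40.7% and 17.5%), Ctla4 (27.3% and 12.8%) and Cd3e (18.9% and 13.7%) gave similar or lower shares.

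The amount per cell differed along with the share of cells. At 4100 UMIs a cell, the median Treg had 0 Gzmb UMIs in WT and 12 in cKO, and the upper quartile was 1 and 29. Among cells with any Gzmb the median was 3 UMIs in WT and 16 in cKO. At least 30 UMIs were found in 1.79% of WT and 24.01% of cKO Tregs. The 10% of WT Tregs with the most Gzmb held 78.5% of its UMIs, whereas the top 10% in cKO held 36.5%. The highest cell had 129 UMIs in WT and 194 in cKO.

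**Figure D2:**
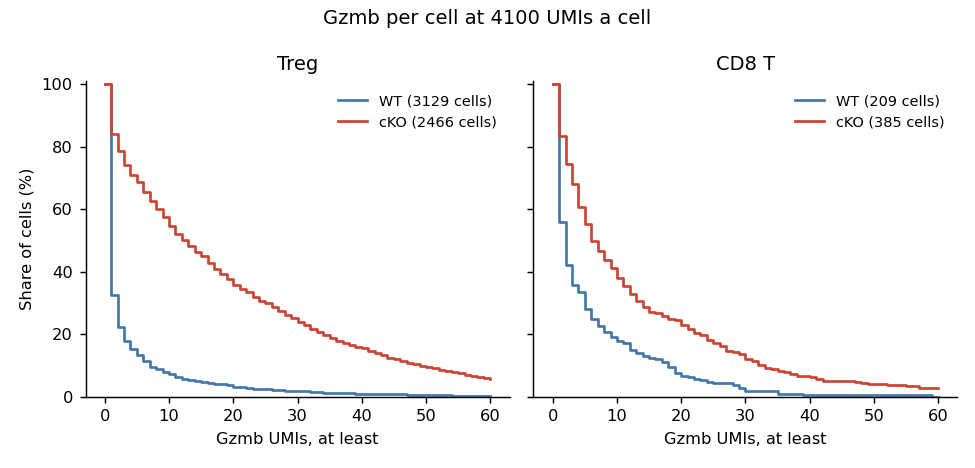
Share of cells (%) with at least the number of Gzmb UMIs on the x axis, each cell thinned to 4100 UMIs, for Tregs (left) and CD8 T cells (right), WT in blue and cKO in red. In Tregs the curves are 32.5% and 84.1% at 1 UMI and 1.79% and 24.01% at 30 UMIs, and in CD8 T cells they are 1.91% and 11.9% at 30 UMIs.

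The Gzmb difference was as large in cells held to a stricter gate, which asked for at least 1 Foxp3 UMI and 0 UMIs of Cd8a, Cd8b1, Lyz2, C1qa, Ncr1 and Klrb1c. In these 867 WT and 725 cKO cells it was at 471 and 4270 CPM, a ratio of 9.06 (8.80 to 9.34), and in 32.0% and 86.3% of thinned cells. Splitting the thinned Tregs by Foxp3 itself gave 603 CPM with and 599 without a Foxp3 UMI in WT, and 5022 and 4577 in cKO. At the edge of the Treg rule, cells with 6 or 7 UMIs of the 4 Treg genes had 789 CPM of Gzmb in WT and 3039 in cKO. Cells just outside it, with 4 or 5, had 1425 and 2685.

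Across classes the order of Gzmb differed between the libraries. In WT, CD8 T cells had 1051 CPM (1021 to 1081), then Tregs 484 and myeloid cells 196 (178 to 215), and no 2 of these intervals overlapped. In cKO, Tregs (4139) and NK cells (4031, 3850 to 4220) overlapped, and CD8 T cells (3206, 3157 to 3256) and myeloid cells (619, 597 to 642) followed. The ratio of cKO to WT was 3.05 in CD8 T cells (2.95 to 3.15), 3.16 in myeloid cells (2.864 to 3.4995) and 5.004 in cells of no class (4.74 to 5.28), all below the 8.55 of Tregs. CD8 T cells had a median of 1 Gzmb UMI in WT and 5 in cKO at the thinned depth, and Gzmb was in 56.0% and 83.4% of them, 68.5% and 88.6% before thinning. Just inside the CD8 rule, at 3 or 4 UMIs of Cd8a and Cd8b1, Gzmb was at 232 CPM in WT and 3031 in cKO, and just outside it, at 2 UMIs, at 369 and 3612. Just inside the myeloid rule, at 10 to 14 UMIs of Lyz2 and C1qa, it was at 274 and 2163, and at 5 to 9 UMIs at 224 and 2100.

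Gzmb did not sit evenly over the states of Tregs. In WT, thinned Tregs with a UMI of Il10, which encodes a suppressive cytokine, had 2469 CPM of Gzmb in 182 cells and the rest had 485, a ratio of 5.09 (4.83 to 5.37). In cKO the same split gave 7409 CPM in 508 cells and 3961, a ratio of 1.87 (1.83 to 1.91). Il10-positive cells were therefore above the rest in both libraries, and the cKO cells without Il10 were above the WT cells with it. Cells with Lag3, an inhibitory receptor, were also higher in both, by 1.49 times in WT (1.42 to 1.57) and 1.69 in cKO (1.66 to 1.73). Ccr8, a chemokine receptor of tumour Tregs, marked the opposite in WT, where 190 positive cells had 154 CPM and the rest 629. In cKO the 128 Ccr8-positive cells had 5187 CPM and the rest 4643. Cells with Rgs2, which limits G-protein signals, were low in both, at 462 and 1031 CPM in WT and at 3440 and 5378 in cKO. Cells with Pdcd1, which encodes PD-1, had 458 CPM against 965 in WT, and 4366 against 4845 in cKO. Cells with Penk, the proenkephalin gene, had 363 against 716 in WT and 4611 against 4683 in cKO. Cells with the proliferation marker Mki67 had 398 against 631 CPM in WT and 3392 against 4811 in cKO. The other proliferation marker, Top2a, went the other way in WT, at 641 against 591 CPM (ratio 1.08, 1.02 to 1.15), and the same way in cKO, at 4171 against 4774. The 19 genes used for these splits were each compared as cells with and without a UMI, and the difference between the libraries in these ratios was not tested. Jmjd1c was 1 of them: WT cells with and without it had 583 and 608 CPM of Gzmb, and cKO cells 4593 and 4701.

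Tregs with at least 3 Gzmb UMIs at the thinned depth were compared with Tregs without one, within each library. This set 555 cells against 2113 in WT and 1830 against 392 in cKO. Of 4620 genes that averaged 20 CPM or more in each library, 1.13% differed by at least 2-fold in WT (0.628% higher and 0.498% lower in the Gzmb-high cells) and 1.56% in cKO (1.15% and 0.411%). Higher in both were 16 genes and lower in both 7, while 1504 had opposite signs in the libraries. The chemokine Ccl4, which draws monocytes and T cells, was at 274 CPM in Gzmb-high and 28.97 in undetected WT Tregs, and at 207 and 25.5 in cKO. Ccr2, a receptor for inflammatory chemokines, was at 501 and 79.0 in WT and at 583 and 185 in cKO. Maf, a transcription factor that drives Il10, was at 1175 and 527 in WT and at 1140 and 454 in cKO. Il10 itself had log2 differences of 2.66 in WT and 2.20 in cKO. Entpd1, the ectonucleotidase CD39, had 1.33 and 1.18, Ccr1 1.54 and 1.92, Calca 1.498 and 2.14 and Gpr55 1.55 and 1.43.

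The lower genes included receptors and ligands of T cells. Ccr7, the lymph node homing receptor, was at 91.0 CPM in Gzmb-high and 414 in undetected WT Tregs, and at 155 and 732 in cKO. Tnfsf8, the CD30 ligand, was at 4.83 and 88.5 in WT and at 2.93 and 84.0 in cKO. The chemokine Ccl1 had log2 differences of -2.21 in WT and -3.99 in cKO, Cd83 had -2.09 and -1.56, Tbc1d4 -1.40 and -2.31, and Cd96 -1.128 and -0.9998. Among the other members, Gzma had log2 differences of 1.30 in WT and 2.24 in cKO and Gzmc of 1.60 and 2.26, while Prf1, at 0.58 and 0.95, was under 2-fold. Gzmk had 0.97 and -0.03, and Gzmd -0.03 and -0.48. Gzmd, Gzme, Gzmf, Gzmg and Gzmk rested on few UMIs here. So did Gzma and Gzmc in WT, with 31 and 43 UMIs in Gzmb-high and 22 and 25 in undetected Tregs. In cKO, Gzma had 1001 and 39 UMIs in these 2 groups, and Gzmc 388 and 11. The part of cells with NK transcripts in the Gzma and Gzmc values was not tested.

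**Figure D3:**
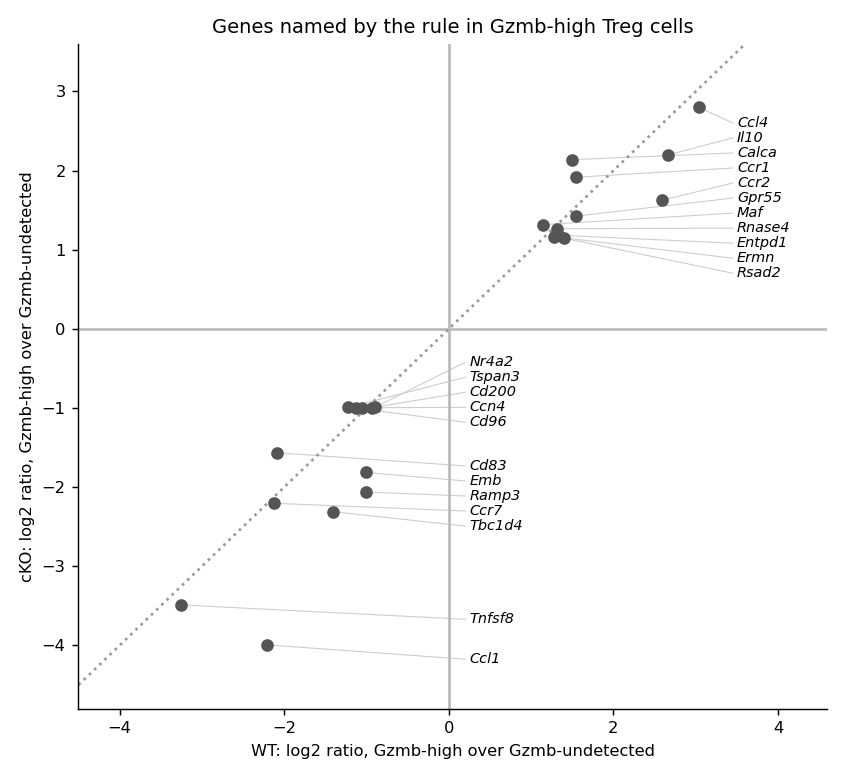
Log2 difference between Tregs with at least 3 Gzmb UMIs and Tregs with none, in WT (x axis) and cKO (y axis), for 23 of the 24 genes chosen as having the most extreme difference of the same sign in both; the dotted line marks equal values. Ccl4, Il10 and Ccr2 are on the high side, and Tnfsf8, Ccl1 and Ccr7 on the low side.

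Perforin was lower in cKO Tregs, and in the whole CD8 T class it was near the same level in both libraries. In WT Tregs it had 1144 UMIs, a level of 30.01 CPM (28.3 to 31.8), and in cKO Tregs 358 UMIs, a level of 15.3 CPM (13.7 to 16.9). WT was 1.97 times as high (1.75 to 2.22), a log2 difference of -0.79, which is under the 2-fold used for counts. Its share of thinned cells was 6.87% in WT (6.01 to 7.81) and 3.65% in cKO (2.94 to 4.47), and 12.1% and 5.51% before thinning. Myeloid cells had Prf1 in 0 of 102 thinned WT cells, which allows a share of up to 2.94%, and in 3 of 300 cKO cells. In all they held 2 and 28 UMIs of it, 22 of the 28 in 1 cell. Without cells that carried an NK transcript or Tyrobp the Treg levels were 30.7 and 11.1 CPM, and WT was 2.76 times as high (2.39 to 3.20). In the stricter gate they were 30.1 and 13.9 CPM (WT 2.18 times as high, 1.71 to 2.79). At the edge of the Treg rule, cells with 6 or 7 UMIs of the 4 Treg genes had 12.5 CPM in WT, from 6 UMIs, and 130 in cKO. The 116 such cKO cells held 91 of the 358 UMIs. Cells just outside the rule, with 4 or 5, had 122 and 53.3 CPM. NK cells of the cKO library had the highest level, 864 CPM (780 to 953), with a Prf1 UMI in 25 of 33 thinned and 32 of 34 unthinned cells. CD8 T cells followed at 128 CPM in WT (117 to 138) and 120 in cKO (111 to 130), a ratio of 0.94 (0.84 to 1.06). Without CD8 T cells that had a Cd4 or Foxp3 UMI, 138 of 213 in WT, the levels were 225 and 136 CPM, and WT was 1.65 times as high (1.41 to 1.92). Prf1 was in 27.8% and 25.2% of thinned CD8 T cells, and in 53.1% and 48.6% before thinning.

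Prf1 was also uneven over Treg states. WT Tregs with Lag3 had 63.5 CPM of Prf1 and those without 17.0, a ratio of 3.73 (3.01 to 4.62). In cKO the levels were 18.3 and 10.9 (1.67, 1.19 to 2.37). With and without Il10, WT cells had 40.2 and 27.0 CPM and a ratio of 1.49 (0.989 to 2.17), whose interval includes 1. The intervals of both Lag3 ratios exclude 1. Tregs with Il1rl1, which encodes the IL-33 receptor, had little Prf1 in either library, at 3.73 against 30.6 CPM in WT and 7.39 against 16.3 in cKO. Cd27 went opposite ways, with 41.9 against 18.9 CPM in WT and 10.7 against 23.3 in cKO. In cKO the Tregs without Cd27 also had more Gzma, at 344 CPM against 10.7 with it, and more Gzmc, at 89.1 against 22.7. The share of thinned cKO Tregs with Prf1 was 4.49% without Cd27 and 3.32% with it. The part of cells with NK transcripts in this was not tested. The 21 WT Tregs with at least 10 Prf1 UMIs did not stand out in the level of NK markers (38.1 CPM, against 43.8 in Tregs without Prf1). By share of cells they did, with an NK marker UMI in 14 of the 21 and in 855 of 2848 WT Tregs without Prf1. A Cd4 UMI was in 90.5% of the 21 and in 76.1% of those without Prf1. These shares are before thinning. The 21 cells were deeper, with a median of 15822 UMIs against 8320, and the part of depth in the shares was not tested. The 7 cKO Tregs with at least 10 Prf1 UMIs had NK markers at 437 CPM, against 72.6 in cKO Tregs without Prf1.

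Granzyme A, a tryptase that cuts after basic residues, had the largest log2(CPM + 5) difference of the 9 members in the Treg class, and it came from very few cells. It had 198 UMIs in WT Tregs (5.19 CPM, 4.50 to 5.97) and 3216 in cKO Tregs (137 CPM, 132 to 142), a ratio of 26.4 (22.8 to 30.6). Of the 3216 UMIs, 3070 were in 16 cells with at least 10 each, and 1081 were in 1 cell. Of these 16 cells, 15 had a UMI of Ncr1, Klrb1c, Klre1, Klri2, Klra4, Klra8, Eomes or Txk, 8 genes of the NK marker list, beside 36.7% of cKO Tregs without Gzma. Tyrobp, an adaptor of NK and myeloid receptors, was in 81.2% of the 16 and in 7.82% of the others, and Foxp3 in 6.25% and 34.9%. The share of thinned Tregs with Gzma was 1.502% in WT (1.11 to 1.99) and 2.60% in cKO (2.004 to 3.30), 2.41% and 3.39% before thinning. Myeloid cells had Gzma in 0 of 102 thinned WT cells, with the same upper limit of 2.94% as for Prf1, and in 3 of 300 cKO cells (0.207% to 2.89%). The Treg shares of Gzma are within these limits, so by share of cells Tregs were not set apart from myeloid cells. The part of free RNA in either class was not tested.

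When cells with Ncr1, Klrb1c, Klre1, Klri2, Klra4, Klra8, Eomes or Tyrobp were left out, a gate chosen after the data had been seen, 3050 WT and 2569 cKO Tregs remained. Gzma was then at 5.55 and 6.24 CPM, a ratio of 1.12 (0.891 to 1.42). In the stricter gate it was at 4.19 and 3.34 CPM, a ratio of 0.80 (0.45 to 1.36). The 26.4-fold difference was thus not seen under either gate, while that of Gzmb stayed at 8.62 and 9.06. NK markers as a list (11 genes) summed to 112 CPM in WT Tregs, with Ncr1 and Klra8 at 0, and to 246 in cKO Tregs, with Klra4 at 0. Myeloid markers (10 of 10 detected) summed to 76.5 and 200.3 CPM, with Tyrobp (37.0 and 76.5) and Fcer1g (22.5 and 72.7) counted in the NK sum too. Gamma-delta T cell markers (4 of 4 detected) summed to 2.94 and 14.6. The part of these cells in the Gzma and Gzmc differences was not tested beyond the gates above. NK cells of the cKO library had 5778 CPM of Gzma (5560 to 6003), with a UMI in 24 of 34 cells. In CD8 T cells Gzma was at 164 CPM in WT (152.5 to 176.3) and 420 in cKO (402 to 438), a ratio of 2.56 (2.35 to 2.78), and in 8.61% and 23.4% of thinned cells, 11.3% and 31.0% before thinning. The log2 difference of 1.33 moved to 0.43 with classes set after thinning, to 3.16 without the 5 highest cells of each library and to 3.18 without cycling cells. In cKO myeloid cells 626 of 635 Gzma UMIs were in 1 cell.

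**Figure D4:**
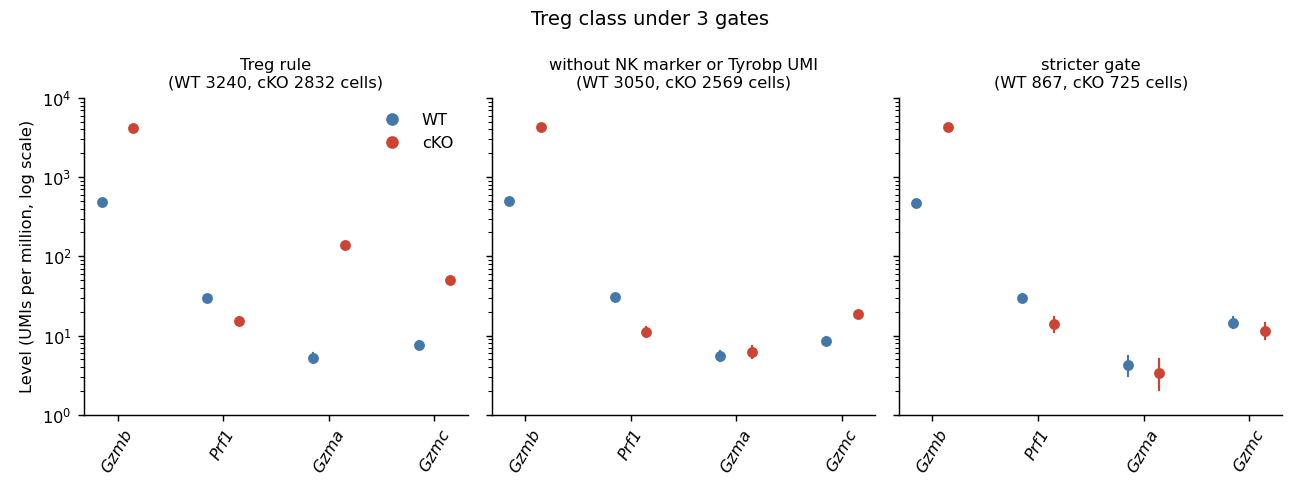
Level of Gzmb, Prf1, Gzma and Gzmc (CPM, log scale) in Tregs by the rule of the class, without cells that had an NK marker or Tyrobp UMI, and by the stricter gate; WT in blue, cKO in red, lines are 95% Poisson intervals. Gzmb stays about as far apart in the 3 panels, with ratios of 8.55, 8.62 and 9.06, while the Gzma levels meet in both narrower gates.

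Granzyme K, a tryptase next to Gzma in the genome and known from memory-like CD8 T cells, was higher in CD8 T cells of cKO and had like, low levels in the Tregs of both libraries. In CD8 T cells it was at 30.6 CPM in WT (25.7 to 36.1) and 188 in cKO (177 to 201), a ratio of 6.15 (5.14 to 7.40). It was in 23 of 209 thinned WT (7.11% to 16.1%) and 42.3% of thinned cKO CD8 T cells (37.3 to 47.4), 24.4% and 62.0% before thinning. The 5 cells with the most Gzmk held 33.8% of the UMIs in WT and 9.97% in cKO, so no small group of cKO cells carried it. Tregs had 95 and 58 UMIs, at 2.49 CPM (2.02 to 3.05) and 2.47 CPM (1.88 to 3.19). NK cells of cKO had 1 UMI. Myeloid cells had 0 UMIs in WT and 21 in cKO, and a Gzmk UMI was in 0.333% of thinned cKO myeloid cells. CD8 T cells without Cd4 or Foxp3, 75 in WT and 296 in cKO, had 48.5 and 223 CPM of Gzmk, a ratio of 4.59 (3.504 to 6.12). This split was also chosen after the data had been seen.

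In the CD8 T class 8 members had a mean of at least 5 CPM. At least 2-fold higher in cKO were 3 of the 9 members (Gzma, Gzmb and Gzmk), beside 0.606% of 8739 genes, and 2-fold lower were Gzme and Gzmf, beside 2.67%. In either direction the share of all genes was 3.27%. The median of all genes tested was -0.04. Without Cd4- or Foxp3-positive cells, Gzmb was at 1141 and 2925 CPM (ratio 2.56, 2.42 to 2.71) and Gzma at 154 and 377 (2.45, 2.10 to 2.88), so both stayed higher in cKO. Gzme turned, at 5.95 and 47.2 CPM (ratio 7.92, 3.76 to 20.02), and so did Gzmc, at 81.7 and 145 (1.78, 1.43 to 2.24). The log2 difference of Gzme, -1.20 in the whole class, was also under 2-fold without the 5 highest cells (-0.14). Gzmf stayed lower, at 718 and 105 CPM. Myeloid cells had 3 of the 9 members at least 2-fold higher in cKO (Gzma, Gzmb and Gzmc), beside 0.932% of 8580 genes, and none lower, beside 0.991%. In either direction the share of all genes was 1.92%. For Gzma and Gzmc this rested on 1 cell each, with 626 of 635 and 94 of 123 cKO UMIs. In WT they were at 0.431 and 0.862 CPM, so they passed the 5 CPM minimum only through cKO. Without the 5 highest cells they were at 0.868 and 2.37 CPM in cKO and neither was past 2-fold, while Gzmb was.

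Granzyme C and its relatives Gzmd, Gzme, Gzmf and Gzmg, which mouse killer cells make after strong stimulation, came from few cells, and Gzmc alone of the 5 was widespread among NK cells. In Tregs Gzmc had 293 UMIs in WT (7.69 CPM, 6.83 to 8.62) and 1186 in cKO (50.5 CPM, 47.7 to 53.5), a ratio of 6.57 (5.78 to 7.496). Of the cKO UMIs 70.7% were in 13 cells with at least 10 each, of which 10 had an NK marker UMI. Without cells with an NK marker or Tyrobp UMI the levels were 8.44 and 18.6 CPM (2.20, 1.88 to 2.57), and the share of thinned cells was 1.53% in WT and 5.05% in cKO. Myeloid cells had Gzmc in 0 of 102 and 2.33% of thinned cells (0.943 to 4.75), so the WT share is within the limit that 0 allows. In the stricter gate the levels were 14.5 and 11.5 CPM (0.79, 0.59 to 1.05), so the direction of the whole class was not seen in the level there. The interval of this ratio includes 1, and the WT level rested on 163 UMIs in 32 cells. The share of thinned cells was still higher in cKO in that gate, at 1.53% in WT (0.815 to 2.60) and 4.20% in cKO (2.79 to 6.05). NK cells of cKO had 11633 CPM of Gzmc, with a UMI in 26 of 34 cells. The kept barcode with the most Gzmc, 1203 UMIs, was among the 6 that met more than 1 rule.

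CD8 T cells had Gzmc at 185 CPM in WT (173 to 198). The cKO level was 104 CPM (95.6 to 113). In WT, 5 cells held 87.4% of the UMIs. Without the 5 highest cells of each library the log2 difference went from -0.80 to 0.54. Gzmf had 1518 UMIs in WT CD8 T cells, 673 of them in 1 cell, and 426 in cKO cells. Its levels were 334 and 83.3 CPM, and WT was 4.01 times as high (3.602 to 4.48). The log2 difference of -1.94 moved to -0.95 without the 5 highest cells and to -4.53 without cycling cells. Gzme had 367 UMIs, 255 in 1 cell, and 165 in cKO, with levels of 80.8 and 32.3 CPM. Gzmd had 183 UMIs in WT, 179 of them in 1 cell, and 200 in cKO. In Tregs Gzmd had 2 and 63 UMIs, Gzme 1 and 57, Gzmf 37 and 43 and Gzmg 2 and 6 in WT and cKO. Gzmf in Tregs was at 0.971 and 1.83 CPM, but in the stricter gate at 2.23 and 0.637. In cKO NK cells 1 cell held all 684 Gzmg UMIs and 2487 of 2908 Gzmf UMIs. The last 300 transcript bases of Gzmd, Gzme, Gzmf and Gzmg are 82.4% to 87.9% identical to each other, so reads could be assigned to the wrong member, and single values of these 4 are uncertain. Gzmc is 45.6% to 52.4% identical to them over that stretch, and Gzmb at most 49.4% to any member.

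These 5 genes were found together. Of kept cKO cells with at least 2 UMIs of the gene, 19 of 20 with Gzmd, 17 of 17 with Gzme, 25 of 29 with Gzmf and 4 of 4 with Gzmg had another of Gzmc to Gzmg as well. In WT these were 2 of 2 with Gzmd, 7 of 7 with Gzme and 11 of 17 with Gzmf. Gzmb was found with them in cKO in 18 of 20, 16 of 17, 28 of 29 and 4 of 4, beside 83.0% of all kept cKO cells. Gzmc, less like the other 4 at the transcript end, was found with them in cKO in 15 of 20, 14 of 17, 21 of 29 and 3 of 4. This stands beside 9.09% of all kept cKO cells. In WT it was found in 1 of 2, 4 of 7 and 10 of 17, beside 3.88%. For the counts with another of Gzmc to Gzmg, no share of all kept cells was worked out. Reads assigned to the wrong one of Gzmd to Gzmg could add to those counts, and this was not tested.

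Granzyme B in cKO Tregs was mostly detected alone. Thinned cKO Tregs had a mean of 19.2 Gzmb UMIs, against 0.426 for Gzma, 0.169 for Gzmc and 0.0584 for Prf1. Detection alone therefore does not show that the other members were absent. At 4100 UMIs a cell, 62.0% of WT and 15.1% of cKO Tregs had none of the 9 members. Gzmb without any other member was in 27.7% of WT and 73.5% of cKO Tregs. Gzmb with Prf1 was in 2.81% (2.26 to 3.45) and 3.41% (2.73 to 4.20), which overlap, while Prf1 without Gzmb was in 4.06% and 0.243%. Among Gzmb-positive Tregs, Prf1 was in 8.66% in WT (7.004 to 10.6) and 4.05% in cKO (3.24 to 4.99). Among the rest it was in 6.01% (5.03 to 7.11) and 1.53% (0.564 to 3.30). At least 3 members were in 0.128% of WT and 1.46% of cKO Tregs. In cKO, Gzma-positive Tregs had Gzmc in 28.1%, Prf1 in 20.3% and Gzmk in 10.9% of cells, and Tregs without Gzma in 4.996%, 3.21% and 0.416%. Before thinning, an NK marker UMI was in 15 of the 16 cKO Tregs with at least 10 Gzma UMIs and in 55.0% of those with 1 to 9. Neither the co-detection with Gzma nor the share with at least 3 members was repeated without such cells. In WT, Gzma-positive Tregs had Prf1 in 6.38% and the rest in 6.88%.

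CD8 T cells and NK cells carried several members at once. None of the 9 was found in 33.0% of WT and 9.35% of cKO CD8 T cells, and at least 3 were found in 12.9% (8.69 to 18.2) and 27.5% (23.1 to 32.3). Gzmb with Prf1 was in 19.1% and 22.6%, with overlapping intervals. Gzma-positive CD8 T cells had Gzmb in 17 of 18 WT and 85 of 90 cKO cells. All 14 WT and 30 cKO CD8 T cells with Gzmc had Gzmb. Gzmk was in 38.9% of Gzma-positive WT CD8 T cells (17.3 to 64.3) and 8.38% of the rest (4.86 to 13.2), and in 52.2% (41.4 to 62.9) and 39.3% (33.7 to 45.2) in cKO, where the intervals overlap. Of 33 cKO NK cells, 26 had at least 3 members and 21 had Gzmb with Prf1.

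**Figure D5:**
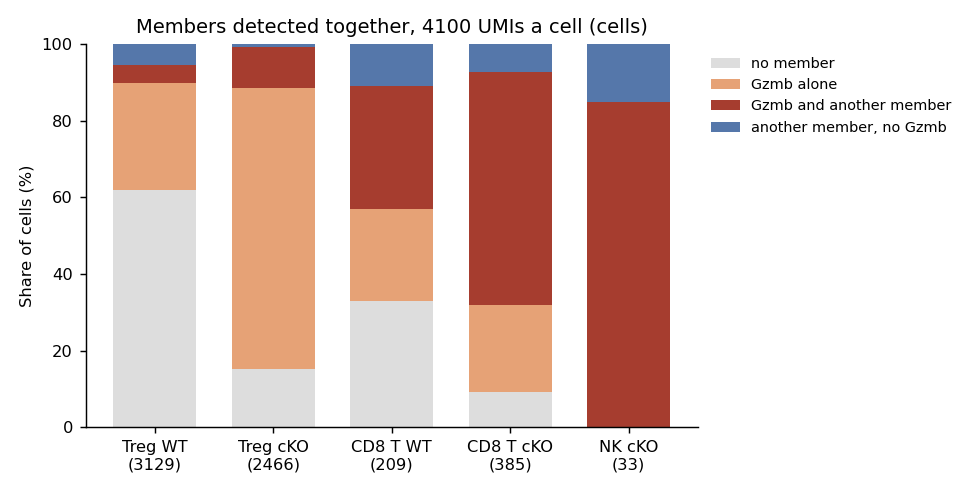
Share of cells (%) with none of the 9 genes, Gzmb alone, Gzmb with another member, or another member without Gzmb, each cell thinned to 4100 UMIs; the number of cells is under each bar. Gzmb alone is in 27.7% of WT and 73.5% of cKO Tregs, and no NK cell of the cKO library lacks all members.

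Among genes that pack and release granules none passed 2-fold in Tregs, where 0.991% of all genes were 2-fold higher and 1.21% lower. Of 13 genes for packing and granzyme activation 9 were higher and 4 lower, and their median log2 difference was 0.19, beside -0.02 for all genes. Srgn, which encodes the granule proteoglycan serglycin, was at 2515 CPM in WT and 4187 in cKO, a ratio of 1.66 (1.65 to 1.68). Ctsc, the protease that activates granzymes, was at 48.5 and 64.5 CPM (1.33, 1.24 to 1.42), M6pr, a sorting receptor, at 165 and 211, and Ctsw at 198 and 140. Nkg7, a granule membrane protein, was at 559 and 603. Of 14 genes of the release machinery none passed 2-fold either, with a median of -0.02. Rab27a, which docks granules, was at 52.9 CPM in WT and 34.4 in cKO, and WT was 1.54 times as high. Unc13d, the priming factor, was at 32.4 and 38.1, Ap3b1 at 99.4 and 122, Rab7 at 135 and 160 and Arl8b at 31.2 and 37.3.

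Serpins that shield cells from their own granzymes had 1 of 7 members 2-fold higher and none lower, and the median of the 6 above 5 CPM was -0.15. The member that passed was Serpinb1a, a neutrophil protease inhibitor, at 5.88 and 19.98 CPM (3.40, 2.89 to 4.01). Serpinb9, the inhibitor of granzyme B, was at 204 CPM in WT and 178 in cKO, so it was not higher where Gzmb was. Serpinb6a was at 147 and 90.4, Serpinb6b, which inhibits granzyme A, at 233 and 240, and Serpina3g at 153 and 141. Among 13 other effector genes 1 was 2-fold higher and 1 lower, with a median of 0.38 for the 10 above 5 CPM. Ccl4 was at 58.0 and 163 CPM (2.82, 2.67 to 2.97), and Xcl1 at 23.6 and 7.71, 3.05 times as high in WT. Ifng, which encodes interferon gamma, was at 18.7 and 40.5 CPM, Ccl3 at 23.3 and 41.3, and Ltb, lymphotoxin beta, at 624 and 975. Gzmn and Ctsg had 0 UMIs in the Tregs of both libraries.

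Regulators known to act on granzyme genes and T cell states were split, with 14 higher and 8 lower of the 22 above 5 CPM. Of 25 transcription factor genes 1 was 2-fold higher and 1 lower, and the median of the 22 above 5 CPM was 0.13. Klf2, a factor of quiescence and trafficking, was at 87.3 CPM in WT and 247 in cKO, and Rbpj, which carries Notch signals, at 433 and 163. Batf, an AP-1 family factor of activated T cells, was at 175 and 340, and Nfil3 at 107 and 188. Tbx21, which encodes T-bet, was at 25.9 (24.3 to 27.6) and 28.7 CPM (26.6 to 31.0), and Prdm1, which encodes Blimp-1, at 44.2 and 53.4. Eomes was at 0.944 and 0.170 CPM, under the minimum. Runx3 was at 147 and 156, and Runx1 at 82.0 and 58.2. Of 13 cytokine receptor genes 1 was 2-fold higher and none lower, with a median of 0.36. It was Il1rl1, at 46.6 and 114 CPM. Il12rb2 was at 15.9 and 36.6, Il2ra at 456 and 591, Il2rb at 520 and 523, Il7r at 297 and 185 and Il18rap at 39.9 and 23.4. Of 18 genes used to mark Treg states 6 were 2-fold higher and 4 lower, with a median of 0.23. That list was drawn from earlier results of these libraries and is no independent evidence of a direction. Il10 was at 21.4 and 92.1 CPM, Socs3 at 57.5 and 220, Rgs2 at 647 and 177 and Itga4, an integrin chain, at 201 and 33.2. In CD8 T cells, where 0.606% of all genes were 2-fold higher and 2.67% lower, 2 of 13 packing genes, 1 of 14 release genes and 2 of 7 serpin genes passed. Ctsl and Ctsh of the packing list and Cd63 of the release list were lower, and Serpinb9b and Serpinb1a of the serpins were higher. Ccl5 was higher and Xcl1 lower among other effectors. Eomes and Tcf7 were higher among transcription factors, and Il12rb2 among receptors. Of the state genes 1 was higher (Hspa1a) and 4 were lower (Rgs2, Itga4, Igfbp7 and Penk).

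Over the 8 combinations of class and library, Gpr18, a receptor gene of lymphocytes, had the pattern most like that of Gzmb (Pearson r of 0.98 of log2(CPM + 5)), with 10.9 CPM in WT and 54.3 in cKO Tregs and 29.5 and 61.6 in CD8 T cells. Fkbp8 (0.97), Sar1a (0.97), Ppm1j (0.95) and Arl6ip5 (0.94) came next. Members were left out of this ranking and of those for Prf1 and Gzma. The genes most like Prf1 were Nrgn (0.94), Lta4h (0.93), Gatad2a (0.93), Klre1 (0.93) and Mrpl34 (0.92). Those most like Gzma were Eif5a (0.92), Gpr18 (0.92), Txn2 (0.90), Rbis (0.89) and Itga1 (0.89). The 8 points share libraries and depth, and the WT NK point is 1 cell. Without it Gpr18 (0.98) came for Gzmb after Naxe (0.99) and Acot8 (0.98), and the 5 leading genes of Prf1 and Gzma were others. Gzmb and Prf1 themselves had an r of 0.43 over the 8 points and 0.68 over 7.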

How the data were processed

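The deposited matrices of the 2 libraries hold whole-number UMI counts per gene and barcode. Per the submitters' processing notes, the authors ran Cell Ranger 5.0.1 with mm10 to obtain these counts. Which annotation was used, and whether intron reads, cell filters or doublet removal were applied, is not given in the sources used here. No doublet caller was run, and cells of very high UMI count were left out only as an alternative.

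Barcodes with at least 500 genes and under 10% mitochondrial UMIs were kept. Levels are a gene's summed UMIs per 1000000 UMIs of the class (CPM). Fold counts use log2(CPM + 5), genes that averaged 5 CPM or more, and a 2-fold threshold. Thinning to 4100 UMIs was random with a fixed seed. The intervals treat UMIs as independent, which UMIs of 1 cell are not. In lists, members and up to 4 genes of each list with the largest difference were named, along with 12 further genes fixed by name. Other list genes past 2-fold, and Gzmn, Ctsg, Runx1 and Runx3, were named after their values were seen. In the comparison of Gzmb-high with Gzmb-undetected Tregs, the 12 genes furthest from 0 in each direction in both libraries were named, except 1 that is not reported here. The ratio intervals, the 2-fold call and the thinning were tried on simulated independent counts, which cannot show how they hold for UMIs clustered in cells. The intervals of levels and shares were not tried. Motifs were searched in RefSeq promoter windows of GRCm38.p6, and gene coordinates came from GENCODE on GRCm38. All 9 members matched both, though the RefSeq window of Gzmk lies inside its annotated gene. The members, classes and gene lists were chosen with earlier results of these data known. No column of per-sample values was left unused. Python 3.11.15, numpy 2.4.6, scipy 1.17.1, pandas 2.3.3, matplotlib 3.10.9 and biopython 1.88 were used. Alternatives covered barcode filters, scaling, pseudocount, thinning depth, class rules and cells left out.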

Additional observations from a re-analysis of the deposited data

Results flagged for a closer look

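Cells that met no class rule, 285 in WT and 434 in cKO, were set apart from the comparisons of classes, apart from their Gzmb ratio. Of the members that averaged 5 CPM or more in them, 3 stood above the WT interval in cKO. Gzmd, under that mean, did too, at 0.253 CPM in WT (0.00641 to 1.41) and 3.63 in cKO (1.93 to 6.20). Gzma and Gzmk were under 5 CPM in WT and reached that mean only through cKO, so the count favours this direction. The share of all genes above the WT interval in these cells was not worked out. Gzmb was at 419 CPM in WT (399 to 440) and 2098 in cKO (2051 to 2146). Gzma was at 2.78 CPM in WT (1.39 to 4.98) and 546.2 in cKO (522 to 571). Of its 1957 cKO UMIs, 1905 were in 20 cells, 17 of which had an NK marker UMI. Gzmk was at 4.55 CPM in WT (2.70 to 7.20) and 28.75 in cKO (23.5 to 34.9). Prf1 was at 24.8 and 24.3 CPM, with overlapping intervals.

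Gzmc was higher in cKO Tregs, by a log2 difference of 2.13, and lower in cKO CD8 T cells, by -0.80. The difference between the classes was not tested. In CD8 T cells the sign turned without the 5 cells with the most Gzmc in each library (0.54), and in Tregs it turned in the stricter gate (-0.25). The share of thinned Tregs with Gzmc stayed higher in cKO in that gate.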

How the results depend on the processing

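No paired analysis was possible because each group is 1 library, and leaving out a replicate was not possible for the same reason. The Gzmb log2 difference in Tregs, 3.08, stayed between 2.94 and 3.17 over 14 alternatives. It was 3.001 with totals without Gzmb, receptor, ribosomal and mitochondrial genes, 3.11 with median-of-ratios scaling, 2.95 as a mean over cells, 3.06 with classes set after thinning, 3.17 in the stricter gate, 2.94 without cells with Mki67 or Top2a and 3.15 without the 5 highest cells. Prf1 in Tregs, -0.79, kept its direction in all 14: it was -0.59 with barcodes of several classes kept, -1.03 with classes set after thinning, -1.05 without the 5 highest cells and -1.15 without cells with an NK marker or Tyrobp UMI. Gzma in Tregs, 3.8002, was 4.48 with a pseudocount of 1 CPM, 3.25 as a mean over cells, 1.77 with classes set after thinning, 4.18 without the 5% of barcodes with the most UMIs, 2.35 without the 5 highest cells, 0.092 without cells with an NK marker or Tyrobp UMI, and reversed to -0.14 in the stricter gate. Gzmb in CD8 T cells, 1.60, was 1.66 with median-of-ratios scaling, 1.31 as a mean over cells, 1.22 with classes set after thinning, 1.49 without the 5% of barcodes, 1.10 without Mki67 or Top2a, 1.80 without the 5 highest cells and 1.35 without Cd4 or Foxp3. Gzmc reversed in Tregs in the stricter gate (-0.25), and in CD8 T cells without the 5% of barcodes (0.066), without the 5 highest cells (0.54) and without Cd4 or Foxp3 (0.79). Gzme in CD8 T cells reversed without the 5% of barcodes (0.58) and without Cd4 or Foxp3 (2.25). The numbers of genes at least 2-fold higher and lower in cKO Tregs, 86 and 105, were 143 and 173 with a pseudocount of 1 CPM, and 65 were lower at a mean of at least 20 CPM. Gzmb was in 25.2% of WT and 79.6% of cKO Tregs at 2000 UMIs, in 41.9% and 88.1% unthinned and in 86.3% of cKO Tregs in the stricter gate. Prf1 among Gzmb-positive Tregs was in 4.91% of WT and 2.37% of cKO cells at 2000 UMIs, in 5.68% of cKO cells at 6000, and in 14.7% and 5.93% unthinned. The causes were not tested. The alternatives that leave out the highest cells, NK marker or Tyrobp cells, or Cd4 or Foxp3 cells were chosen after seeing the data. Gzmd, Gzme, Gzmf and Gzmg averaged under 5 CPM in Tregs and were rerun there only under the stricter gate and without cells with an NK marker or Tyrobp UMI.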
